A study of Mus musculus with 8 samples.

Results

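Macrophage marker genes were followed in dorsal skin of mice treated with tieghemelin, maslinic acid, minoxidil or water. The genes were Ms4a7, Mrc1, Mertk, Aif1, Adgre1, Cd68, Csf1r, C1qa, C1qb and Lyz2, and a member was measured where a probe set of the array carried its symbol and no other. Of the 10 genes, 9 had such a probe set, 1 each, among 19572 probe sets with 1 gene symbol; Cd68 was not analysed here. The genes were chosen by name with the levels of these same arrays in all 4 groups already known, so their values are given as a description and carry no test. Skin was taken from male C3H mice, an inbred strain, that were 7 weeks old at the start, were depilated on the back and were then treated on the skin each day for 20 days. The 4 groups of 2 arrays each were tieghemelin, maslinic acid (a pentacyclic triterpene acid), minoxidil (a hair growth drug that opens potassium channels) and Milli-Q water as control, with each compound at 1% by the sample descriptions; the source name of minoxidil array 2 gives 2%. The titles of the control arrays name them as controls of tieghemelin and maslinic acid, and the same arrays served here for minoxidil. Each group held 8 mice, and nothing says which of them an array came from, so the spread between arrays may be technical.

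Macrophages are phagocytes that settle in the dermis and around hair follicles, where they clear dying cells, take up debris and microbes and release signals to their neighbours. Their survival depends on the receptor CSF1R and its ligands CSF1 and IL34, and their identity on the transcription factor PU.1, encoded by Spi1. Around the hair follicle they are known for a part in the passage from rest to growth, which depilation also sets off. In whole skin they are a minority of cells, so their transcripts reach an array diluted by those of keratinocytes, fibroblasts, fat and muscle.

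Among the members above the 95th percentile of background on at least 6 arrays, Ms4a7, Mrc1 and Lyz2 had the largest differences from control with all arrays. The size of the Mrc1 difference, and its sign with minoxidil, depended on control array 1. Promoter sequences of these genes are shown, since PU.1 is known to bind a GAGGAA core in genes of this lineage. Each is the stretch of 250 bases before to 50 bases after a RefSeq gene start in GRCm38.p6, the C57BL/6J assembly, read 5′ to 3′ on the gene's strand. Capitals mark GAGGAA or the overlapping, longer ETS-type string AGGAAGT on either strand (TTCCTC and ACTTCCT in reverse). The windows are chr19:11336097-11336396 on the minus strand for Ms4a7, chr2:14229164-14229463 on the plus strand for Mrc1 and chr10:117282223-117282522 on the minus strand for Lyz2.
Ms4a7: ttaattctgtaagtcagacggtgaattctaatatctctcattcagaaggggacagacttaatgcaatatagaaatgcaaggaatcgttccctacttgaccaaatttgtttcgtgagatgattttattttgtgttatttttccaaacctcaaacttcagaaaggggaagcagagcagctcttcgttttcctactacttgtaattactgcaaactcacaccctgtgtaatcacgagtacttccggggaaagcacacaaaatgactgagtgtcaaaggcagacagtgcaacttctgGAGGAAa
Mrc1: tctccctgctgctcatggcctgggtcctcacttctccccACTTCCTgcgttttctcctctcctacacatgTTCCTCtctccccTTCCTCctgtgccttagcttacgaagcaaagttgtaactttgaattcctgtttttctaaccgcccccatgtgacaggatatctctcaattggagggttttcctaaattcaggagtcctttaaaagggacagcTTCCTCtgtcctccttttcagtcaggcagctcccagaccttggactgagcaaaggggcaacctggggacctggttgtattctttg
Lyz2: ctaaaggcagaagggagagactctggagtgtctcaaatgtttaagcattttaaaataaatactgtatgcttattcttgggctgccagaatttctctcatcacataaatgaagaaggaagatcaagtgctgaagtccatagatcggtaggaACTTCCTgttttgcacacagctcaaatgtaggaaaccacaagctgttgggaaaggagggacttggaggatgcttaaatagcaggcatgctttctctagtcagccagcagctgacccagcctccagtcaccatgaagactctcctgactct
Ms4a7 held 1 GAGGAA near the end of the window, Mrc1 held 3 GAGGAA and 1 AGGAAGT, and Lyz2 held 1 AGGAAGT. Of the 6 members with a promoter in the table, 4 held GAGGAA (Ms4a7, Mrc1, C1qb and Aif1) and 3 held AGGAAGT (Mrc1, C1qb and Lyz2). Among all 32851 promoters of this length, 28.3% held GAGGAA and 9.35% held AGGAAGT. A second Ms4a7 start in the table, at chr19:11334646-11334945, and the Mertk promoter held neither string.

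Each array was read against its own antigenomic probe sets, 23 features that match no mouse sequence and measure background. Their medians were 7.02 and 6.97 with tieghemelin, 6.96 and 7.08 with maslinic acid, 7.51 and 7.33 with minoxidil and 7.75 and 7.61 in control skin, all as log2 signal. A member thus crossed the background median at a lower signal on the tieghemelin and maslinic acid arrays than on the control arrays. Control array 1 stood apart: across the 22206 tested probe sets it correlated with the other 7 arrays at a Pearson r of 0.518 to 0.538, against 0.901 to 0.966 among those 7. Most results that use it are therefore given with and without it.

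Against this background the markers divided into genes with clear signal and genes at or near the noise. Of the 54 member values on treated arrays, 42 lay above the background median, and of the 18 values on control arrays 8 did. Over all tested probe sets, 66.2% to 80.3% lay above it on the treated arrays and 56.9% and 62.4% on control arrays 1 and 2. Ms4a7, Mrc1 and Adgre1 were above the median on all 8 arrays, Lyz2 on 7, Mertk and C1qb on 6, Aif1 on 3, and Csf1r and C1qa on 2 each. With the stricter 95th percentile of the antigenomic probe sets, Mrc1 was above on 7 arrays, Ms4a7, Adgre1 and Lyz2 on 6, C1qb on 1 and the other 4 members on none. The label of macrophage markers therefore rested on 4 genes with signal, while Csf1r, the receptor that defines the lineage, and the complement gene C1qa were near or below background on most arrays.

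**Figure D1:**
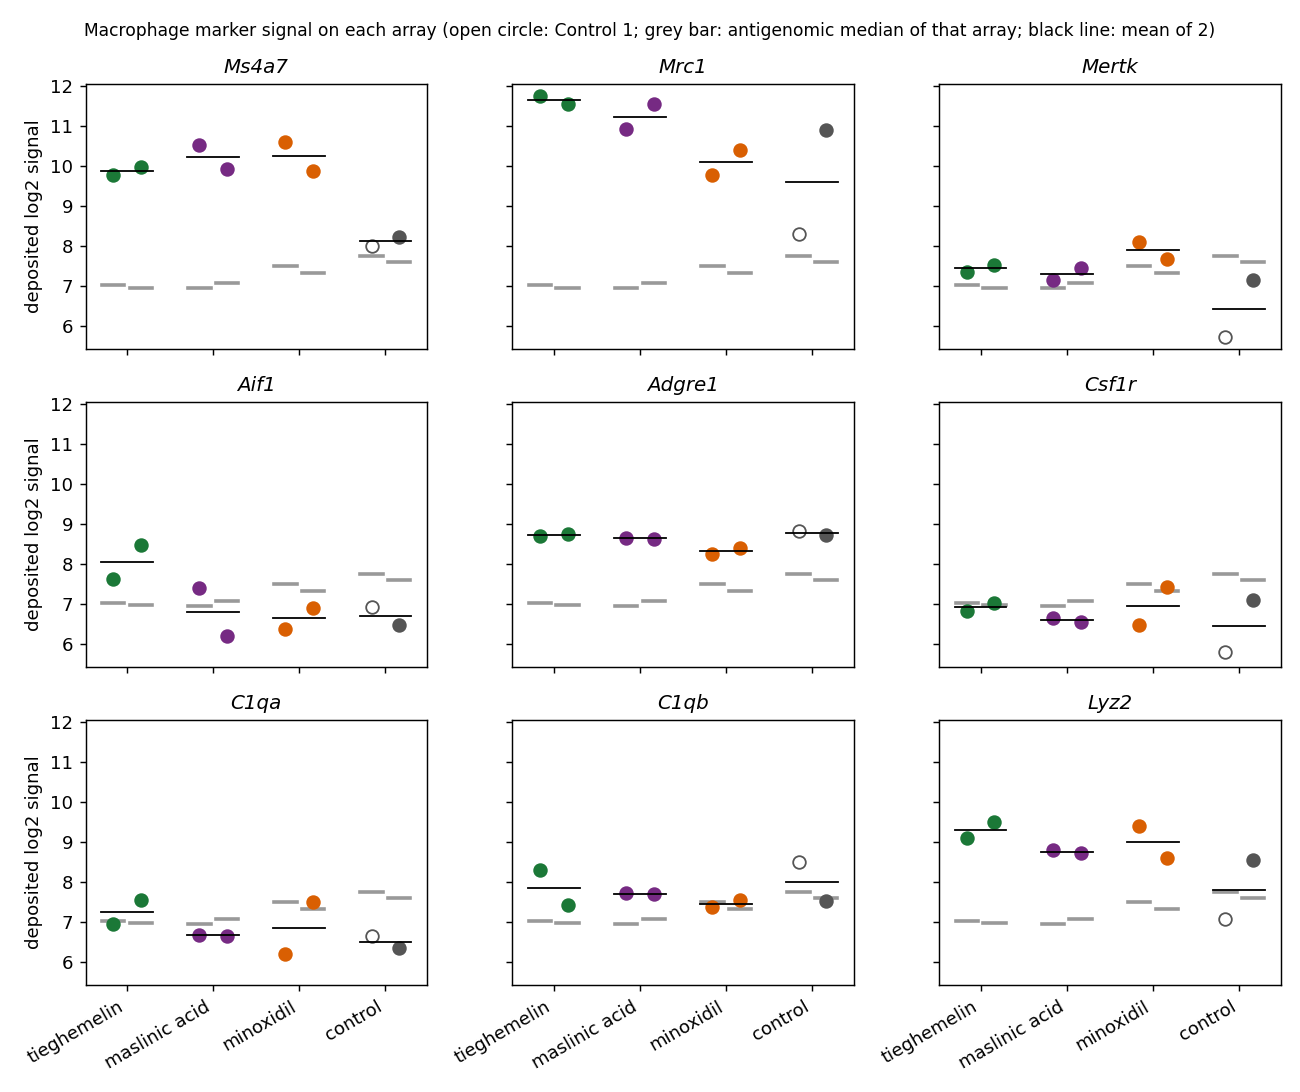
Deposited log2 signal (vertical axis) of the 9 measured macrophage markers on each array, by group (horizontal axis). Filled points are arrays, the open point is control array 1, grey bars are the antigenomic median of the same array and black lines are means of 2 arrays. Ms4a7 sat between 9.79 and 10.61 on the 6 treated arrays and at 8.02 and 8.24 on the control arrays, whereas Csf1r and C1qa lay near or below the grey bars.

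**Figure D2:**
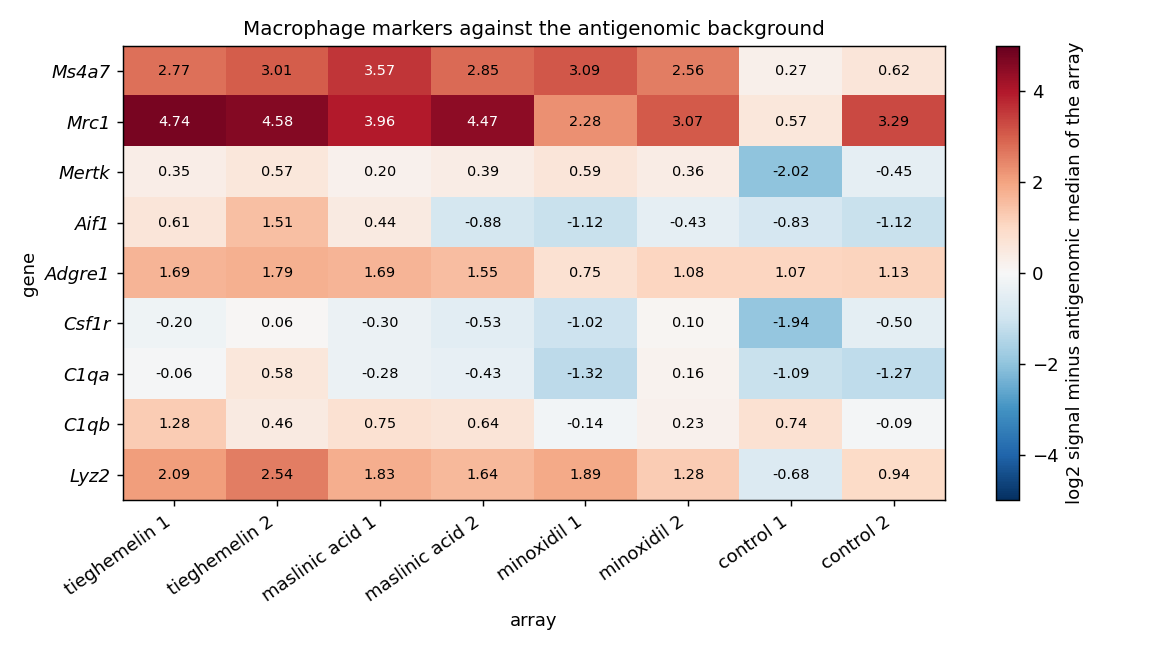
Log2 signal of each marker minus the antigenomic median of its array, as numbers and colour (rows are genes, columns are arrays; red is above and blue below background). Mrc1 reached 4.74 on tieghemelin array 1 and 0.57 on control array 1, and Aif1 was above background on both tieghemelin arrays and maslinic acid array 1 only.

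Ms4a7 encodes a membrane-spanning protein of the MS4A family that is found on tissue macrophages, and it was the marker with the clearest gap between treated and control skin. It read 9.79 and 9.98 with tieghemelin, 10.54 and 9.93 with maslinic acid and 10.61 and 9.89 with minoxidil, against 8.02 and 8.24 in control skin. No treated array overlapped a control array, and both control arrays stood at 0.27 and 0.62 above background where the treated arrays stood at 2.56 to 3.57. Group means were 9.89 ± 0.13 with tieghemelin, 10.23 ± 0.43 with maslinic acid, 10.25 ± 0.51 with minoxidil and 8.13 ± 0.15 in control skin (SD, n = 2 each), so the signal was 3.38-, 4.30- and 4.35-fold that of control. Without control array 1 the folds were 3.14, 3.98 and 4.04. Ms4a7 did not separate the treatments from each other, whose arrays overlapped in every pair. In bulk skin, more cells of a type and more RNA per cell cannot be told apart.

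The Ms4a genes lie in a cluster, and 17 others had a probe set; they were looked at after the Ms4a7 values were seen. Of these, 2 (Ms4a13 and Ms4a19) had all 6 treated arrays above both control arrays, against 9.15% of all probe sets. Ms4a19 read 8.26 and 7.93 with tieghemelin, 8.26 and 8.29 with maslinic acid and 8.28 and 8.02 with minoxidil, against 7.88 and 7.74 in control skin. Without control array 1, Ms4a13 exceeded control by 0.12 on the log2 scale over all treated arrays. Ms4a6c and Ms4a6d, which are also known from macrophages, overlapped between treated and control arrays when both control arrays were used. For Ms4a6c the overlap came from control array 1 (8.05). Its treated arrays read 6.16 to 7.76, all above control array 2 (6.08), with a difference of 0.998 over all treated arrays. It was above background on 4 of the 8 arrays. Ms4a6d overlapped without control array 1 as well, with a difference of 0.08. Among the markers themselves, 3 of 9 (Ms4a7, Mertk and Lyz2) had every treated array above both control arrays, and 0 had every treated array below both, where 6.93% of probe sets did. For Mertk this was nearly a tie, with 7.163 on maslinic acid array 1 against 7.162 on control array 2. For Lyz2 minoxidil array 2 read 8.61 against 8.55 on control array 2.

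Adgre1 encodes F4/80, the surface receptor by which mouse macrophages are most often identified. It read 8.71 and 8.76 with tieghemelin, 8.65 and 8.63 with maslinic acid and 8.26 and 8.41 with minoxidil, against 8.83 and 8.74 in control skin. It was the steadiest marker, with a mean gap of 0.08 between the 2 arrays of a group, and its minoxidil arrays were the lowest of all 8. Relative to control the difference was -0.05 with tieghemelin and -0.14 with maslinic acid, which became 0.64 and 0.52 when each array's antigenomic median was subtracted, a scaling that put the median of all probe sets at 0.73 and 0.71. With minoxidil it was -0.45 (1.37-fold lower), and -0.41 without control array 1. Relative to the background of each array, the mean was 0.91 with minoxidil and 1.10 in control skin, and the arrays overlapped. F4/80 transcript thus did not share the treated-over-control gap of Ms4a7.

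Csf1r encodes the receptor for CSF1 and IL34. It read 6.82 and 7.02 with tieghemelin, 6.66 and 6.55 with maslinic acid and 6.49 and 7.43 with minoxidil, against 5.81 and 7.11 in control skin. Only tieghemelin array 2 and minoxidil array 2 exceeded their background medians, by 0.06 and 0.10, so no fold is given against control. Of its ligands, Il34, which keratinocytes make, was above background on all 8 arrays, at 8.34 and 8.11 with tieghemelin, 8.43 and 8.49 with maslinic acid and 8.74 and 9.11 with minoxidil, against 8.83 and 8.23 in control skin, while Csf1 was above on 6. With all arrays, neither ligand met the study's thresholds in any of the 6 comparisons, a fold change of at least 1.7 with an unadjusted p of at most 0.05.

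Mrc1 encodes the mannose receptor CD206, an endocytic lectin of resident dermal macrophages, and its difference of 1.56 between tieghemelin and minoxidil was the largest that any measured marker showed between 2 treatments. It read 11.76 and 11.54 with tieghemelin, 10.92 and 11.55 with maslinic acid and 9.79 and 10.40 with minoxidil, against 8.32 and 10.90 in control skin. All tieghemelin and maslinic acid arrays lay above both minoxidil arrays, a comparison that does not involve the control arrays. Means were 11.65 ± 0.16 with tieghemelin, 11.24 ± 0.44 with maslinic acid and 10.10 ± 0.43 with minoxidil (SD, n = 2 each), which put tieghemelin 2.94-fold and maslinic acid 2.20-fold above minoxidil, and the tieghemelin and maslinic acid arrays overlapped. Against control the value rested on which control array was used. With both, tieghemelin, maslinic acid and minoxidil differed by 2.05, 1.63 and 0.49 on the log2 scale; without control array 1 they differed by 0.75, 0.34 and -0.80.

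Mertk encodes a receptor tyrosine kinase through which macrophages engulf dying cells. It read 7.37 and 7.54 with tieghemelin, 7.16 and 7.47 with maslinic acid and 8.10 and 7.69 with minoxidil, against 5.73 and 7.16 in control skin. All treated arrays were above background, by 0.20 to 0.59, and neither control array was. On the log2 scale, tieghemelin, maslinic acid and minoxidil differed from control by 1.01, 0.87 and 1.45. Without control array 1 these differences were 0.29, 0.15 and 0.73. Set against the background median, minoxidil was at least 1.16-fold higher than control (at least 1.22-fold without control array 1). No fold remained for tieghemelin or maslinic acid. Both minoxidil arrays exceeded all tieghemelin and maslinic acid arrays, and tieghemelin was 1.36-fold and maslinic acid 1.49-fold lower than minoxidil. Relative to the background of each array, the means were 0.46 with tieghemelin, 0.29 with maslinic acid and 0.47 with minoxidil, and the arrays of each of these groups overlapped with those of minoxidil, so that gap did not stand on that scale. Maslinic acid array 1 and control array 2 read alike at 7.16.

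Aif1 encodes IBA1, an actin-bundling protein of phagocytes. It read 7.63 and 8.48 with tieghemelin, 7.40 and 6.19 with maslinic acid and 6.39 and 6.90 with minoxidil, against 6.92 and 6.49 in control skin. Both tieghemelin arrays exceeded every other array, and minoxidil and control arrays were all below background. Tieghemelin was at least 1.55-fold higher than minoxidil, at least 1.29-fold higher than control (at least 1.36-fold without control array 1), and its mean exceeded that of maslinic acid, of which 1 array was below background. The 2 maslinic acid arrays lay nearly as far apart as the means of tieghemelin and maslinic acid, which differed by 1.25.

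The secreted products were lysozyme and the chains of C1q, the complement molecule that tags debris. Lyz2 encodes the lysozyme of macrophages and neutrophils, and its near-identical neighbour Lyz1 has a probe set of its own, so cross-hybridisation between them could blur either value. Lyz2 read 9.11 and 9.51 with tieghemelin, 8.79 and 8.72 with maslinic acid and 9.40 and 8.61 with minoxidil, against 7.07 and 8.55 in control skin. Every treated array exceeded both control arrays, though minoxidil array 2 barely exceeded control array 2, and control array 1 lay below its background. The folds over control were 2.83 with tieghemelin, 1.92 with maslinic acid and 2.29 with minoxidil, and 1.69, 1.15 and 1.37 without control array 1. Tieghemelin exceeded maslinic acid on both arrays (1.47-fold). Lyz1 was 8.29 and 8.43 with tieghemelin, 8.36 and 8.12 with maslinic acid and 7.91 and 7.71 with minoxidil, against 7.84 and 8.33 in control skin, without the separation of Lyz2.

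C1qa and C1qb encode 2 of the chains of C1q and C1qc the remaining one. C1qa read 6.96 and 7.55 with tieghemelin, 6.69 and 6.65 with maslinic acid and 6.20 and 7.49 with minoxidil, against 6.66 and 6.35 in control skin. It exceeded background only on tieghemelin array 2 and minoxidil array 2, and tieghemelin was at least 1.18-fold higher than maslinic acid. C1qb read 8.30 and 7.43 with tieghemelin, 7.72 and 7.71 with maslinic acid and 7.37 and 7.56 with minoxidil, against 8.49 and 7.52 in control skin. With all arrays, its treated and control arrays overlapped in all 3 comparisons with control. Without control array 1, both maslinic acid arrays exceeded control array 2, by a mean of 0.19 on the log2 scale. C1qc read 7.61 and 7.003 with tieghemelin, 6.80 and 7.27 with maslinic acid and 7.78 and 7.79 with minoxidil, against 8.23 and 7.67 in control skin. The 3 chains did not order the groups alike: minoxidil was lowest on average for C1qb and maslinic acid for C1qc. None of the chains showed the gap between treated and control arrays seen for Ms4a7.

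**Figure D3:**
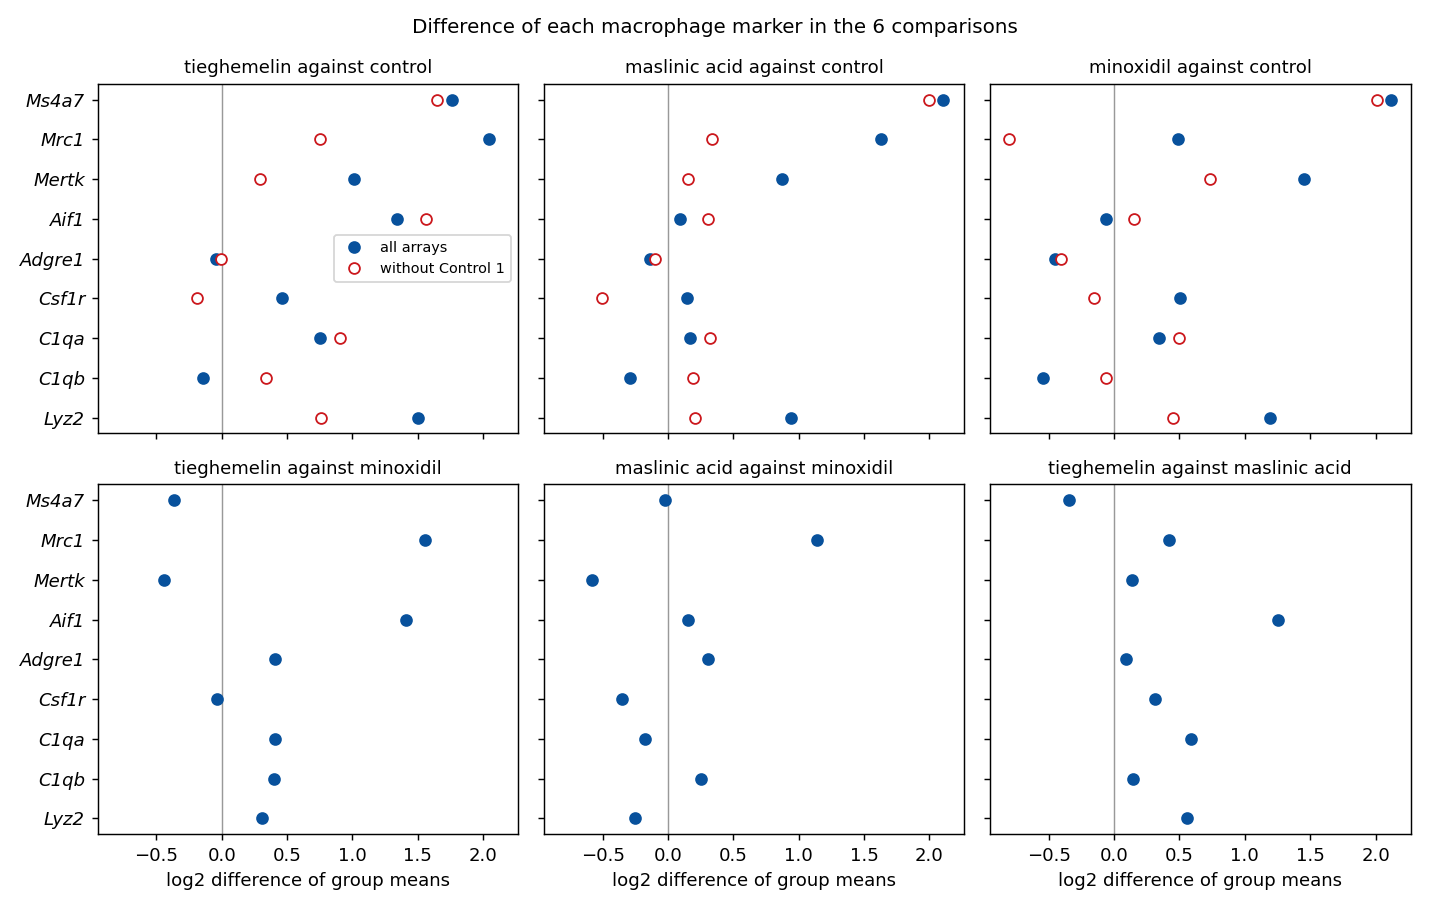
Log2 difference of group means (horizontal axis) of each marker (rows) in the 6 comparisons, as the first-named group minus the second. Filled points use all arrays and open points leave out control array 1. Ms4a7 stayed between 1.65 and 2.12 in the 3 comparisons with control, while Mrc1 moved to -0.80 for minoxidil without control array 1.

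Counted over the set with all arrays, markers whose arrays did not overlap with control were more often higher than lower, most clearly with tieghemelin. With tieghemelin, 6 of 9 were higher than control and 0 lower, where 22.2% and 18.4% of all probe sets were. The 6 higher ones were Ms4a7, Mrc1, Mertk, Aif1, C1qa and Lyz2. Of these, Mertk, Aif1 and C1qa were above background on no control array, and C1qa on only 1 tieghemelin array. Mertk was also among the higher ones with the other compounds. Its place with maslinic acid, with or without control array 1, rested on a treated and a control array that both read 7.16. With maslinic acid 4 were higher and 1 lower (20.8% and 17.9% of probe sets), and with minoxidil 3 were higher and 1 lower (20.6% and 15.6%). Adgre1 was the lower one in both cases, and with 9 markers the minoxidil counts lay near the shares of all probe sets.

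Without control array 1 each treated pair was set against a single control array, which few values straddle. The counts higher than control were then 6 with tieghemelin, 6 with maslinic acid and 3 with minoxidil (39.6%, 38.1% and 37.8% of probe sets), and the counts lower were 1, 2 and 2 (37.5%, 37.4% and 32.2%). The median difference over the 9 markers was 1.01 with tieghemelin, 0.17 with maslinic acid and 0.49 with minoxidil, and 0.75, 0.20 and 0.15 without control array 1. The median over all probe sets was 0.05, 0.05 and 0.06 with all arrays. The 3 comparisons share their control arrays, so they are not separate evidence.

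Between treatments, tieghemelin exceeded minoxidil without overlap for Mrc1, Aif1 and Adgre1 and was lower for Mertk (20.3% and 23.6% of probe sets). Maslinic acid exceeded minoxidil for Mrc1, Adgre1 and C1qb and was lower for Mertk (20.1% and 23.5%). Tieghemelin exceeded maslinic acid for 5 of 9, namely Aif1, Adgre1, Csf1r, C1qa and Lyz2, and was lower for 0 (15.7% and 14.9%). The median differences were 0.40, -0.02 and 0.32, against -0.03, -0.03 and 0.01 over all probe sets, and the 0.32 was the value of Csf1r. For Adgre1, above background on both tieghemelin arrays, the last gap was 0.09, and Csf1r and C1qa were near background. The larger gaps in signal above background on both tieghemelin arrays were those of Aif1 and Lyz2.

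The markers did not move as a unit across arrays. Over the 7 arrays without control array 1, the Pearson r of a marker with the mean of all 9 centred profiles ran from -0.02 for Mertk, 0.12 for Csf1r and 0.34 for C1qb to 0.78 for C1qa and 0.90 for Aif1, with 0.35 for Adgre1, 0.41 for Ms4a7, 0.55 for Mrc1 and 0.57 for Lyz2. Each marker is part of that mean, so these values lean towards markers that vary widely, such as Aif1. Of 14061 other probe sets above background on at least 4 of those arrays, the profiles most like the mean were those of Polr1b (an RNA polymerase I subunit, r = 0.987), Art5 (an ADP-ribosyltransferase, 0.985), the zinc finger genes Zfp936 (0.984) and Dzip1 (0.968), and the odorant receptor gene Olfr854 (0.961). None of these is a gene of the macrophage-related lists. They were picked as the highest of 14061 values of r over 7 arrays, so high values can follow from the search alone.

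Other macrophage-related genes were read from 7 lists with 73 genes, of which 67 had a probe set, and were tested with limma across all 22206 probe sets. With all arrays, limma called 0 of the 67, and 0 of all probe sets, at an adjusted p under 0.05 in each of the 6 comparisons. At the study's thresholds, tieghemelin against control called 2 higher and 4 lower, which is 8.96% of the 67 against 11.7% of all probe sets. Maslinic acid called 2 higher and 5 lower (10.4% against 10.8%) and minoxidil 4 higher and 4 lower (11.9% against 11.3%). Between treatments, tieghemelin and maslinic acid each gave 2 higher and 1 lower relative to minoxidil (4.48% each, against 3.30% and 3.60%), and tieghemelin against maslinic acid gave 0 (0.306% of all). An unadjusted p under 0.05 alone gave the same counts of list genes. Without control array 1, tieghemelin, maslinic acid and minoxidil against control called 6, 10 and 10 of the 67 (13.7%, 12.8% and 12.9% of all probe sets), and 9 of 67 (13.4%) were called for tieghemelin and for maslinic acid against minoxidil, where 10.4% and 11.1% of all probe sets were. Without control array 2, which leaves the array that stood apart as the only control, they called 35, 36 and 39 against control (52.2%, 53.7% and 58.2% of the list, and 47.5%, 47.3% and 47.3% of all probe sets). With each array's antigenomic median subtracted, the balance of list genes turned to 18 higher and 1 lower with tieghemelin, 13 and 0 with maslinic acid and 8 and 2 with minoxidil, under the scaling that also made most calls of the whole table higher.

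Among genes of uptake and residence, tieghemelin skin had higher Trem2, a lipid-sensing receptor, and Lyve1, a hyaluronan receptor of perivascular macrophages, by 1.05 and 1.01 (limma adjusted p = 0.414 and 0.419), though neither was above background on a control array and Lyve1 did not meet the thresholds without control array 1. In the list of Fc receptor, scavenger and efferocytosis genes that holds Trem2, 1 gene was higher and 2 lower with tieghemelin. The lower ones were Gas6, a ligand of Mertk, at least 1.63-fold with all arrays (limma adjusted p = 0.422), and Fcgr4, an Fc receptor gene below background on all 8 arrays; neither met the thresholds for tieghemelin without control array 1. Trem2 read 7.19 and 7.44 with tieghemelin, 6.77 and 7.38 with maslinic acid and 7.28 and 7.41 with minoxidil, against 6.07 and 6.46 in control skin. With minoxidil it was higher than control by 1.08 (limma adjusted p = 0.44). Apoe, a lipid carrier that keratinocytes and glands also make, was 9.28-fold lower than control with tieghemelin and 4.17-fold lower with minoxidil (limma adjusted p = 0.41 and 0.442). Without control array 1 these folds were 17.4 and 7.83, and maslinic acid was 6.36-fold lower. In that setting Cbr2, of the same list, was at least 2.26-fold higher than control with tieghemelin and 2.09-fold with maslinic acid. Lgmn, of the lysosome list, was then 2.07-, 2.08- and 2.22-fold lower with tieghemelin, maslinic acid and minoxidil. Spi1, the PU.1 gene, read 8.99 and 8.66 with tieghemelin, 8.33 and 8.66 with maslinic acid and 9.01 and 9.53 with minoxidil, against 6.60 and 8.66 in control skin. With minoxidil it differed from control by 1.64 with all arrays and 0.61 without control array 1, where it no longer met the thresholds.

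Among activation genes, Il1b, an inflammatory cytokine, read 8.61 and 9.06 with tieghemelin, 8.66 and 7.67 with maslinic acid and 8.56 and 8.33 with minoxidil, against 10.14 and 9.49 in control skin. It was 3.13-fold lower than control with maslinic acid and 2.59-fold lower with minoxidil (limma adjusted p = 0.448 and 0.44), and 2.50- and 2.07-fold without control array 1. Cd86, a costimulatory ligand, was at least 1.05- and 1.22-fold higher with the same compounds (at least 1.10- and 1.28-fold without control array 1). Ccl2, a chemokine gene, was 2.06-fold higher than control with minoxidil with all arrays (limma adjusted p = 0.44). Il10 was 1.93-fold lower with tieghemelin than with minoxidil. Without control array 1, the cytokine gene Il6 was at least 1.49-fold higher than control with tieghemelin and at least 1.16-fold with maslinic acid. In the monocyte list, Chil3, a chitinase-like protein also made by alternatively activated macrophages, was above background with tieghemelin and maslinic acid and below it with minoxidil and in control skin. Relative to minoxidil it was at least 1.21-fold higher with tieghemelin and 1.48-fold higher with maslinic acid (limma adjusted p = 1 for each). In the lysosome list Lamp1, a lysosomal membrane protein, differed by 1.03 and 1.19 on the log2 scale between tieghemelin and minoxidil and between maslinic acid and minoxidil, and by -1.61 between minoxidil and control; 1 of the 2 minoxidil arrays was above background and their mean was not, so no fold is given. In antigen presentation, 3 of 6 genes were lower with maslinic acid than in control skin at the study's thresholds. Over all 22206 probe sets, 989 were called lower in that comparison and 10.8% in either direction. Tieghemelin against control called 1 gene of the list lower and minoxidil 0. The 3 genes were Ciita, the master activator of MHC class II, 2.18-fold, the peptide-loading chain gene H2-DMb1 1.90-fold, and H2-DMa, which was below background in both groups. Of these, 1 met the thresholds without control array 1, namely Ciita (2.02-fold), which was above background on 1 of the 2 maslinic acid arrays.

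**Figure D4:**
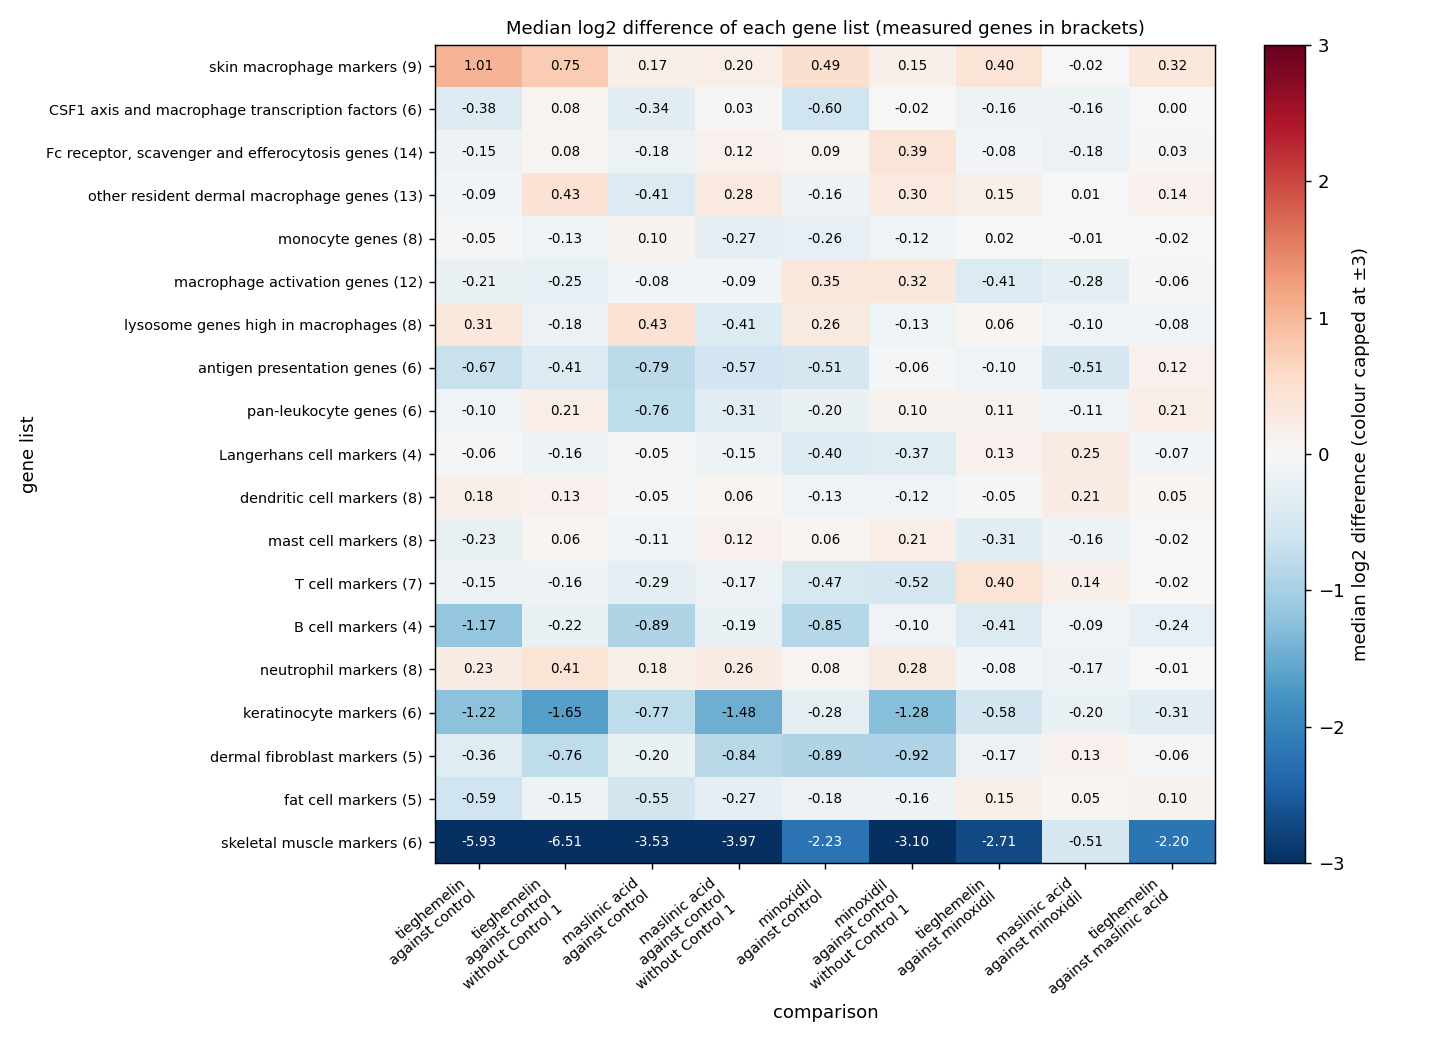
Median log2 difference of each gene list (rows, with the number of measured genes) in each comparison (columns), as numbers and colour; colours are capped at 3 in either direction. The macrophage markers had medians of 1.01, 0.17 and 0.49 against control with all arrays. The first 2 were the values of Mertk and C1qa, which were near background. The other resident dermal macrophage genes had -0.09, -0.41 and -0.16, and skeletal muscle markers had the lowest median of the lists shown in each comparison with control.

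Lists of other cells of skin were read beside these values. The 13 measured other genes of resident dermal macrophages had medians of -0.09, -0.41 and -0.16 for tieghemelin, maslinic acid and minoxidil against control, and 0.43, 0.28 and 0.30 without control array 1, so that list changed sign with the array that was doubted. Pan-leukocyte genes had medians of -0.10, -0.76 and -0.20, and 0.21, -0.31 and 0.10 without control array 1. Markers of Langerhans, dendritic, mast and T cells and of neutrophils had medians of -0.47 to 0.23 in the 3 comparisons with control. Without control array 1 their medians were -0.52 to 0.41, of which neutrophil markers had 0.41, 0.26 and 0.28. B cell markers had medians of -1.17, -0.89 and -0.85, against -0.22, -0.19 and -0.10 without control array 1. Skeletal muscle markers were lower than control for 6 of 6 genes with each compound, with array means of 8.63 to 9.71 with tieghemelin, 9.69 to 13.06 with maslinic acid, 11.50 to 12.01 with minoxidil and 14.22 to 15.16 in control skin. Keratinocyte markers were lower than control for 4, 4 and 3 of 6 genes with all arrays, with medians of -1.22, -0.77 and -0.28, and for 6 of 6 with each compound without control array 1, with medians of -1.65, -1.48 and -1.28. Dermal fibroblast markers were lower for 4, 3 and 4 of 5 genes with all arrays (medians -0.36, -0.20 and -0.89) and for 5 of 5 with each compound without control array 1 (medians -0.76, -0.84 and -0.92). Of 8 neutrophil markers, 5 were higher and 3 lower than control with tieghemelin with all arrays, of which S100a9 was 3.10-fold higher and Ngp at least 2.19-fold lower at the study's thresholds (limma adjusted p = 0.41 and 0.419); without control array 1 Ngp was not called. S100a8 read 10.13 on tieghemelin array 2, the array with the highest Aif1 and Lyz2, and 6.45 to 7.75 on the other 7. The part of muscle, keratinocyte, fibroblast and neutrophil content in the marker values was not tested.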

How the data were processed

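Total RNA from dorsal skin was hybridised to 8 Clariom S Mouse arrays, from 9.4 µg of RNA per the labels' protocols. The authors normalised the scans in Transcriptome Analysis Console 4.0.1, per the series' design text, and the submitters' processing notes also name Affymetrix Expression Console and RMA; the deposited values were taken as log2 signal from their range. The spread of the deposited values still differed between arrays, with an SD over the tested probe sets of 1.32 on control array 1 and 1.62 to 1.69 on the others, so differences in normalization can add to differences between groups. A genome build was not given in the sources used here. Depth has no meaning for arrays, and their number limits the precision.

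Control probe sets (6640) were left out, and 22206 were tested without further scaling. Gene names came from the platform annotation: 19572 probe sets had 1 symbol, 0 several and 2634 none. Both the members and the lists were chosen with earlier results of these data known, as was the naming rule. All measured members are named, with at most 4 list genes per list and comparison that met the study's thresholds, C1qc, and the 5 most similar profiles; Il34, Csf1, S100a8, Lyz1 and the other Ms4a genes were named after their values were seen. A gene above its array's antigenomic median on no array of a group gets a bound in place of a fold: its arrays were floored at that median, and no fold is given where the bound falls under 1 or neither group is above background. A fold was also left out where 1 array of a group was above background but the group mean was not, as for Lamp1 with minoxidil and Aif1 with maslinic acid. The antigenomic probe sets differ in GC content, so being above their median does not establish detection of one gene.

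The list genes were tested with limma 3.58.1 (R 4.3.3): 1 model of the 4 groups was fitted to all 8 arrays, leaving 4 residual degrees of freedom, variances were moderated with eBayes, and p-values were adjusted by Benjamini-Hochberg across the 22206 probe sets. With 2 arrays against 2 the smallest 2-sided exact permutation p is 0.33, so no such test was used. The code was tested on simulated data. The alternatives were a replicate block, quantile normalization, subtraction of each array's antigenomic median, a filter on mean signal above background, a stricter background percentile, and leaving out each array in turn.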

Additional observations from a re-analysis of the deposited data

How the results depend on the processing

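With 2 arrays a group and 4 residual degrees of freedom, values near the antigenomic medians (7.02 and 6.97 with tieghemelin, 6.96 and 7.08 with maslinic acid, 7.51 and 7.33 with minoxidil, 7.75 and 7.61 in control skin) are limited by signal over background, and a lone array left after another is dropped is assumed to vary like the other groups. Subtracting each array's antigenomic median moved the probe sets at the study's thresholds to 6750, 6289, 1819 and 1696 for tieghemelin and maslinic acid against control and against minoxidil, where the counts without it were 2609, 2409, 732 and 800. The share of higher ones became 98.6%, 98.6%, 98.4% and 97.8% (59.7%, 58.9%, 53.6% and 54.1% without it), 87.6% for minoxidil against control (61.9%) and 59.3% for tieghemelin against maslinic acid (45.6%). It moved the median over all probe sets to 0.73, 0.71 and 0.32 for tieghemelin, maslinic acid and minoxidil against control and to 0.40 and 0.37 for the first 2 against minoxidil, and the marker medians to 1.70 and 0.83 against control and 0.83 and 0.38 against minoxidil. Of 54 marker differences, 11 changed sign with it and 1 with quantile normalization (Ms4a7, maslinic acid against minoxidil). The filter on mean signal above background kept 5 markers, whose medians were 1.4996 and 0.943 for tieghemelin and maslinic acid against control, 0.25 for maslinic acid against minoxidil and 0.15 for tieghemelin against maslinic acid; the share of higher calls against control was 70.7%, 69.9% and 71.5%. The cause of these moves was not tested beyond the shift of the medians.

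Leaving out 1 array at a time gave 815 to 10549, 773 to 10499 and 1189 to 10508 probe sets at the study's thresholds for tieghemelin, maslinic acid and minoxidil against control, with the highest counts without control array 2. The ranges were 223 to 2314 for tieghemelin against minoxidil, 301 to 2463 for maslinic acid against minoxidil and 27 to 347 for tieghemelin against maslinic acid. With limma's adjusted p under 0.05 they were 0 to 8427, 0 to 8282 and 0 to 8363 against control and 0 in the other 3 comparisons; without control array 1 they were 79, 1 and 1. Marker medians ran from 0.75 to 1.13, 0.15 to 0.80 and 0.031 to 1.155 against control, from 0.12 to 0.48 and -0.29 to 0.35 for tieghemelin and maslinic acid against minoxidil, and from 0.15 to 0.32 for tieghemelin against maslinic acid. Without control array 1, the markers lower than control without overlap numbered 1, 2 and 2, and 7 of 54 marker differences changed sign: Csf1r in all 3 comparisons with control, C1qb with tieghemelin and maslinic acid, and Mrc1 and Aif1 with minoxidil. Ms4a7 stayed higher than control under each setting run.

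The replicate numbers are not stated to pair arrays, and deviations of same-numbered arrays correlated at -0.17 to 0.09 across probe sets. With the replicate number as a block, the counts at the study's thresholds were 2565, 2316, 2450, 634, 644 and 51, with 0 by limma's adjusted p in all 6 comparisons.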
